A study of Drosophila melanogaster with 9 samples.

Results

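The genes described here are 9 components of the Drosophila insulin receptor pathway, chosen by name: InR, chico, Pi3K92E, Pi3K21B, Pdk1, Akt, foxo, Lnk and ImpL2. The array annotation listed a probe set of its own for 6 of them, InR, chico, Pdk1, Akt, foxo and ImpL2, among 11983 genes with a value. Each of the 6 had 1 probe set. For Pi3K92E, Pi3K21B and Lnk no probe set was listed, by current symbol, by gene identifier or together with another gene, so they are named without values.

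Most insulin-like peptides in flies bind a single receptor tyrosine kinase, InR. ImpL2 is a secreted protein that binds such peptides and holds them away from the receptor. The adaptors chico (the insulin receptor substrate) and Lnk (an SH2B protein) link the active receptor to the phosphoinositide kinase made of the catalytic subunit Pi3K92E and the regulatory subunit Pi3K21B. The lipid it makes brings Pdk1 and Akt to the membrane, where Pdk1 phosphorylates Akt, and Akt in turn keeps the transcription factor foxo out of the nucleus. When signalling is low, foxo activates genes that include InR itself. The pathway couples feeding to germline stem cell division and yolk uptake in the fly ovary. Most of its steps run by phosphorylation, which transcript levels do not measure.

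Total RNA was hybridised to 9 Affymetrix arrays, 3 each from a wild type (titled Control), an OGA mutant strain and an SXC mutant strain. Oga encodes the enzyme that removes O-GlcNAc from proteins and sxc the transferase that adds it. The title of the series names nutrient-responsive oogenesis, while the labels give no allele, sex, age, tissue or diet for any group. They also do not say whether arrays of a group came from separate animals, so the spread behind every p-value may be technical. Precision is limited by the number of arrays, 3 in each group.

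The targeted genes were read first, as a check of the genotype labels. Oga was lower in the OGA mutant by a log2 difference of −1.05 with SE 0.10 (limma adjusted p = 0.00698), and sxc was lower in the SXC mutant by −1.49 with SE 0.06 (adjusted p = 2.80e-07). Oga was no longer called when any 1 of the OGA mutant replicates 1 to 3 was left out (adjusted p = 0.0550, 0.05002 and 0.0627), when wild type replicate 3 was (0.0750), with no moderation of variances (0.978) or with only the compared groups fitted (0.0665). Its difference stayed between −1.16 and −0.92 under all alternatives. With no tissue labelled, no tissue was inferred from the levels of marker genes. Of those measured, 11 of 11 eggshell and 3 of 3 yolk markers read below the median level, which splits all genes evenly. So did 6 of 10 germline and 0 of 10 haemocyte markers. Below it too were 10 of 11 testis, 8 of 9 accessory gland, 7 of 8 neuron and 4 of 4 photoreceptor markers. The same held for 5 of 6 muscle, 6 of 7 fat body and 9 of 10 gut markers. SXC mutant replicate 1 stood farthest out on the first principal component (22.7, against 10.5 and 13.0 on the other SXC arrays and −12.3 to −4.26 elsewhere). In root mean square deviation from its group mean, OGA mutant replicate 3 was highest at 0.122, with SXC mutant replicate 1 next at 0.120. A control pair for GAPDH, read as a sign of RNA integrity, had a 3′ minus 5′ difference of 2.74 to 3.29 in the SXC mutant, against 1.79 to 2.31 in wild type. The other 4 control pairs had overlapping ranges in the 2 groups.

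None of the 6 measured genes passed the test in any comparison, and the differences from wild type ranged from −0.11 to 0.39 on the log2 scale. The 2 nearest to a call were foxo, 1.31-fold higher in the SXC mutant, and Pdk1, 1.24-fold higher there, each at an adjusted p of 0.0581. In whole RNA, a change in the share of a cell type and a change in transcript per cell cannot be told apart, which applies to every gene below. Values are given on the log2 scale of the arrays, where a difference of 1 is a doubling. Levels of different genes are not ranked, because each probe set has its own response.

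ImpL2, the secreted antagonist, read 14.04, 14.03 and 13.91 on wild-type replicates 1 to 3. It read 14.12, 13.96 and 14.07 in the OGA mutant, and 13.82, 13.90 and 13.93 in the SXC mutant. Each mutant overlapped wild type, but all 3 SXC arrays were below all 3 OGA arrays. This was the one measured member whose SXC mean lay below wild type, at −0.11 with SE 0.07 (95% interval −0.26 to 0.04, adjusted p = 0.360). The OGA mutant differed from wild type by 0.06 with SE 0.07 (−0.09 to 0.21, adjusted p = 0.974). Between the mutants the OGA mutant was 0.17 above the SXC mutant with SE 0.07 (0.02 to 0.31, adjusted p = 0.142). An intensity trend with a robust prior brought that difference past the threshold (adjusted p = 0.0421). The order of means was OGA mutant, wild type, SXC mutant, and neighbours in it did not differ beyond their spread.

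InR, the receptor itself, read 10.29, 10.34 and 10.40 in wild type. Its OGA mutant values were 10.68, 10.36 and 10.40, and its SXC mutant values 10.41, 10.45 and 10.63. The SXC arrays all lay above the wild-type arrays by a narrow margin, and the OGA mutant mean was raised by replicate 1 alone. The SXC mutant differed from wild type by 0.15 with SE 0.09 (95% interval −0.05 to 0.35, adjusted p = 0.342). The OGA mutant difference was 0.14 with SE 0.09 (−0.06 to 0.34, adjusted p = 0.974), and without OGA mutant replicate 1 it was 0.04. The mutants differed from each other by −0.01 with SE 0.09 (−0.21 to 0.19).

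**Figure D1:**
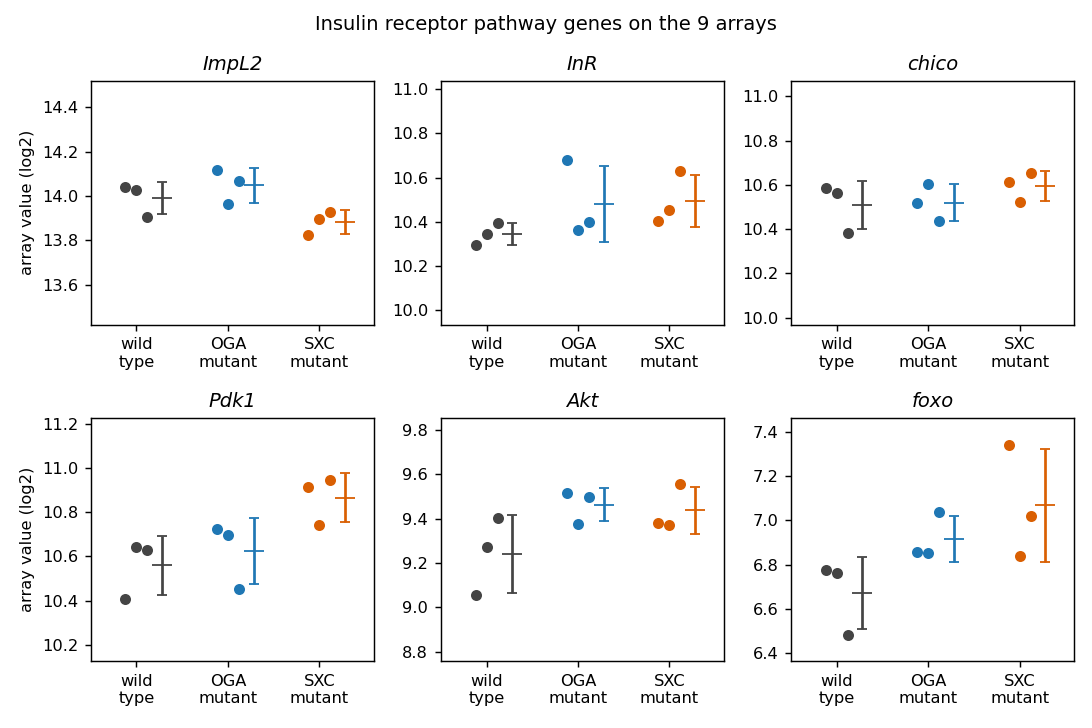
Log2 array value of each measured insulin receptor pathway gene on every array (points, 3 per genotype) with the group mean and SD beside them (horizontal mark and bars, n = 3); every panel spans the same height of 1.1 log2 units. The SXC arrays lie above the wild-type arrays for InR, Pdk1 and foxo, while for the other 3 genes they overlap; for ImpL2 the SXC arrays lie below the OGA arrays.

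For chico, the receptor substrate, the wild-type values were 10.58, 10.56 and 10.38. The OGA mutant gave 10.52, 10.60 and 10.44, and the SXC mutant 10.61, 10.52 and 10.65. All 3 genotypes overlapped. The difference from wild type was 0.01 with SE 0.08 in the OGA mutant (95% interval −0.16 to 0.17, adjusted p = 0.994) and 0.09 with SE 0.08 in the SXC mutant (−0.08 to 0.25, adjusted p = 0.539). Quantile normalization and median centring turned the sign of the OGA value (both −0.01), as did leaving out OGA mutant replicate 2 (−0.03) or wild type replicate 3 (−0.05). As ratios to wild type, the unadjusted intervals ran from 0.897 to 1.13 in the OGA mutant and from 0.947 to 1.19 in the SXC mutant.

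Pdk1, the kinase that activates Akt, read 10.41, 10.64 and 10.63 in wild type and 10.73, 10.70 and 10.45 in the OGA mutant. In the SXC mutant it read 10.91, 10.74 and 10.95. Every SXC array was above every array of both other groups, with SXC mutant replicate 2 the closest. The SXC mutant was 0.31 above wild type with SE 0.10 (1.24-fold, 95% interval 1.07 to 1.43, unadjusted p = 0.00808, adjusted p = 0.0581). It was also above the OGA mutant, which differed from it by −0.24 with SE 0.10 (−0.45 to −0.03, adjusted p = 0.129). The OGA mutant itself differed from wild type by 0.06 with SE 0.10 (−0.14 to 0.27, adjusted p = 0.984). The SXC difference passed with quantile normalization (adjusted p = 0.0404), with an intensity trend and robust prior (0.0386) and when only the compared groups were fitted (0.0496). Without wild type replicate 1, the lowest control, it was 0.23 (adjusted p = 0.218).

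Akt, the kinase at the centre of the pathway, had wild-type values of 9.05, 9.27 and 9.40, the widest spread of any measured member in wild type. Its OGA mutant values were 9.51, 9.38 and 9.50, and its SXC mutant values 9.38, 9.37 and 9.56. Both mutants overlapped wild type only through wild-type replicate 3, and the 2 mutants overlapped each other. The OGA mutant was 0.22 above wild type with SE 0.09 (95% interval 0.02 to 0.42, unadjusted p = 0.0347, adjusted p = 0.974). The SXC mutant was 0.20 above it with SE 0.09 (−0.01 to 0.40, adjusted p = 0.211). These 2 values share their wild-type arrays: without wild type replicate 1 they were 0.13 and 0.10, and without wild type replicate 3 they were 0.30 and 0.28.

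The transcription factor gene foxo read 6.77, 6.76 and 6.48 in wild type. It read 6.86, 6.85 and 7.04 in the OGA mutant, and 7.34, 6.84 and 7.02 in the SXC mutant. All 6 mutant arrays lay above all 3 wild-type arrays, and the mutants overlapped each other. Its SXC values were the most scattered of the measured members (SD 0.25, n = 3). The SXC mutant was 0.39 above wild type with SE 0.12 (1.31-fold, 95% interval 1.09 to 1.59, unadjusted p = 0.00809, adjusted p = 0.0581). The OGA mutant was 0.24 above it with SE 0.12 (1.18-fold, 0.981 to 1.43, adjusted p = 0.974), and the mutants differed by −0.15 with SE 0.12 (−0.42 to 0.12, adjusted p = 0.471).

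How near foxo came to a call in the SXC mutant depended on single arrays. Without SXC mutant replicate 1 the log2 difference was 0.26 (adjusted p = 0.181), with array quality weights 0.21 (0.114), and without SXC mutant replicate 2 it was 0.51 and passed (0.0313). It also passed with quantile normalization (0.40, adjusted p = 0.0441) and median centring (0.41, adjusted p = 0.0328). The part in this difference of RNA integrity, as read from the GAPDH control pair noted above, was not tested.

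**Figure D2:**
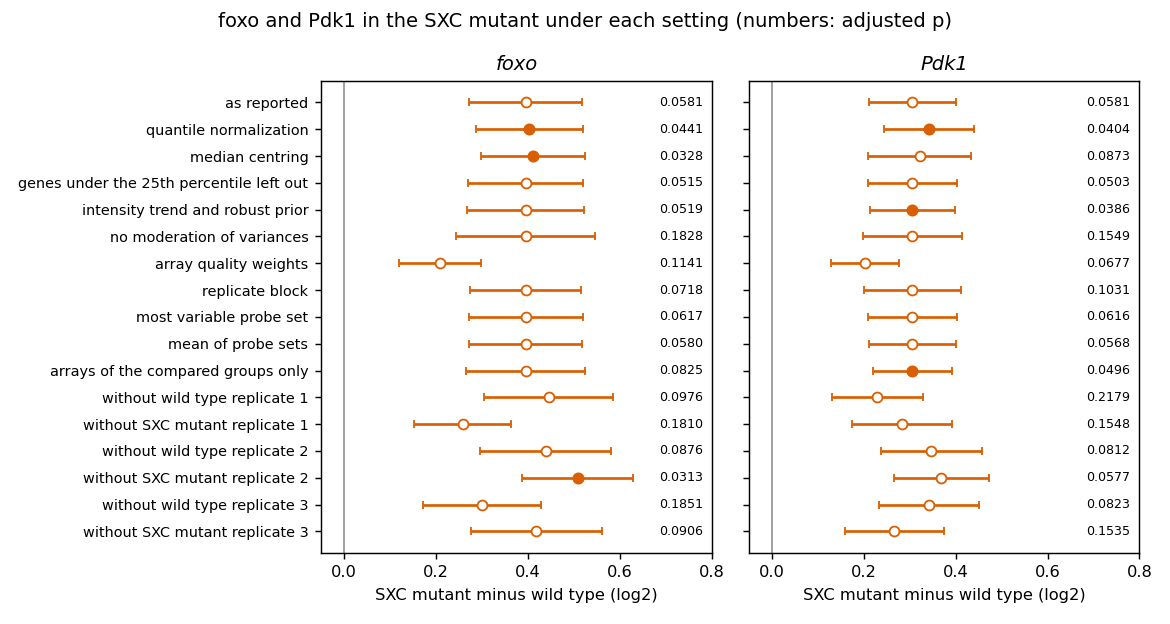
Log2 difference of foxo and Pdk1 between SXC mutant and wild type as reported and under 16 alternatives (points, with SE as bars), with the limma adjusted p printed at the right; filled points have an adjusted p under 0.05. All values are above 0, from 0.21 to 0.51 for foxo and 0.20 to 0.37 for Pdk1, and each gene passes under 3 alternatives.

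The members' counts were read against those of all genes. In the OGA mutant 0 of 6 were called by limma, where 0.00835% of genes tested were called, which is 1 gene, Oga itself. At an unadjusted p under 0.05 there was 1 member (Akt), against 3.91% of genes. Groups did not overlap for 1 member (foxo), against 9.04% of genes. The 6 differences were all positive, with a median of 0.10 against −0.00 over all genes, though these signs depended on the setting. One member became negative under 5 of 16 alternatives: chico with quantile normalization, with median centring, without OGA mutant replicate 2 and without wild type replicate 3, and Pdk1 without wild type replicate 1 (−0.01). The median dropped to 0.03, with all 6 positive, when OGA mutant replicate 1 was left out.

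In the SXC mutant 0 of 6 were called, against 12.9% of genes tested. Unadjusted p-values under 0.05 belonged to 2 members (Pdk1 and foxo), against 26.1% of genes, and groups did not overlap for 3 (InR, Pdk1 and foxo), against 32.7%. Of the differences 5 were positive and 1 negative, with a median of 0.17 against −0.01 over all genes. The comparison shares its wild-type arrays with that of the OGA mutant, so the like signs in the 2 are not separate observations.

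Between the mutants 0 of 6 members were called, against 11.8% of genes. There were 2 with an unadjusted p under 0.05 (Pdk1 and ImpL2), against 26.6% of genes, and the same 2 had groups that did not overlap, against 30.2%. Their directions were opposite: Pdk1 was lower and ImpL2 higher in the OGA mutant.

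**Figure D3:**
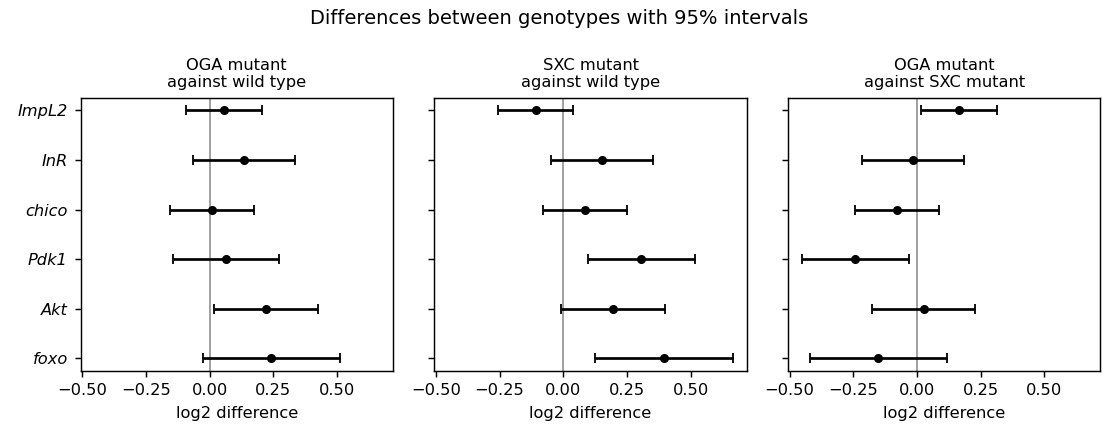
Log2 difference of each measured insulin receptor pathway gene in the 3 comparisons (points) with its 95% interval from the fit over all 9 arrays (bars). The intervals leave out 0 for Akt in the OGA mutant, for Pdk1 and foxo in the SXC mutant, and for Pdk1 and ImpL2 between the mutants, before adjustment for the number of genes tested.

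Of 12 listed insulin-like peptides and secreted partners 8 were measured, the member ImpL2 among them, and none was called in any comparison. Of all genes, 0.00835% were called in the OGA mutant, 12.9% in the SXC mutant and 11.8% between the mutants. Ilp2, Ilp5 and Ilp7, known mainly as peptides of neurons, and Ilp8, a peptide of growing or damaged imaginal discs, read 4.21 to 5.98 over all 9 arrays. At an unadjusted p under 0.05 stood Ilp8 in the SXC mutant (0.24 with SE 0.11, adjusted p = 0.191) and ImpL2 between the mutants. The median difference was 0.02 in the OGA mutant and 0.05 in the SXC mutant.

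Of 32 other genes listed as acting on the pathway 19 were measured. In the SXC mutant 3 rose, 1 fell and 15 did not pass, so that 4 of 19 were called, against 12.9% of all genes. Their median difference was 0.08, against −0.01 over all genes. Sik3, a salt-inducible kinase, rose by 0.45 with SE 0.13 (1.37-fold, adjusted p = 0.0388), from 8.75, 9.07 and 9.17 in wild type to 9.43, 9.32 and 9.60. Sirt1, a protein deacetylase, rose by 0.39 with SE 0.10 (1.31-fold, adjusted p = 0.0227). Ptp61F, a tyrosine phosphatase that acts on the fly insulin receptor, rose by 0.24 with SE 0.06 (1.18-fold, adjusted p = 0.0259). The gene that fell was Pi3K68D, a phosphoinositide kinase of another class than Pi3K92E, with a difference of −0.29 and SE 0.07 (1.23-fold lower, adjusted p = 0.0182). All 4, already selected by their calls, had SXC arrays that did not overlap wild type, against 32.7% of all genes.

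Each of these 4 calls ended under some alternatives. Those of Sik3, Ptp61F, Sirt1 and Pi3K68D were kept under 7, 10, 11 and 13 of 16. Second probe sets differed by 0.10 for Ptp61F and −0.03 for Sik3, far less than the first, while that of Pi3K68D differed by −0.21. Without wild type replicate 1, and likewise without SXC mutant replicate 1, the list held 0 calls. It held 1 when wild type replicate 2 was left out, 1 when SXC mutant replicate 3 was, 2 when SXC mutant replicate 2 was, and 2 with no moderation or with probe sets averaged.

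In the OGA mutant 0 of these 19 genes were called, against 0.00835% of all genes, with a median of 0.04. The 2 smallest p-values belonged to 14-3-3zeta (0.20 with SE 0.07, adjusted p = 0.974) and Pi3K68D (0.18 with SE 0.07, adjusted p = 0.974). Between the mutants 3 of 19 were called, against 11.8% of all genes. Higher in the OGA mutant were Pi3K68D (0.48 with SE 0.07, 1.39-fold, adjusted p = 0.00256) and 14-3-3zeta, an adaptor that binds phosphorylated proteins (0.39 with SE 0.07, 1.31-fold, adjusted p = 0.00670). Sirt1 was called lower there (−0.35 with SE 0.10, adjusted p = 0.0356), and that call ended under 8 of 16 alternatives, among them leaving out OGA mutant replicate 1 (adjusted p = 0.0640) or 3 (0.115) or SXC mutant replicate 1 (0.126) or 3 (0.0838). The Pi3K68D and 14-3-3zeta calls were kept under all 16 alternatives run.

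Genes described elsewhere as targets of foxo moved in both directions in the SXC mutant. Of 19 listed 14 were measured, the member InR among them. In this list 3 rose, 1 fell and 10 did not pass, so that 4 of 14 were called, against 12.9% of all genes. Their median difference was 0.15. The largest rise was in puc, the phosphatase gene that feeds back on JNK signalling, which read 10.57, 10.84 and 10.79 in wild type and 11.44, 11.33 and 11.52 in the SXC mutant. That difference was 0.70 with SE 0.08 (1.62-fold, adjusted p = 0.00105), and puc was also called between the mutants (−0.53 with SE 0.08, adjusted p = 0.00380). Both puc calls were kept under all 16 alternatives.

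Sesn, the sestrin gene that restrains TOR, rose from 9.19, 9.38 and 9.26 to 9.92, 9.66 and 9.57, by 0.44 with SE 0.10 (1.36-fold, adjusted p = 0.0136). It was no longer called when wild type replicate 1 was left out (adjusted p = 0.0647) or with no moderation (0.0717). Between the mutants Sesn was also called (−0.43 with SE 0.10, adjusted p = 0.0171), a call that ended without OGA mutant replicate 1 (0.0525) or SXC mutant replicate 1 (0.0524) and with no moderation (0.0860). The triglyceride lipase gene bmm rose by 0.31 with SE 0.09 (1.24-fold, adjusted p = 0.0377) and was kept under 8 of 16 alternatives. It was called in 0 of the 6 fits that left out a wild-type or SXC array (adjusted p from 0.0559 to 0.128).

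The member that fell was path, an amino acid transporter gene. It read 8.69, 8.78 and 9.14 in wild type, 9.27, 8.72 and 8.76 in the OGA mutant, and 7.61, 7.90 and 8.14 in the SXC mutant. The SXC arrays stood apart from all others, and the fall was 0.99 on the log2 scale with SE 0.17 (1.98-fold, adjusted p = 0.00464). Between the mutants the difference was 1.03 with SE 0.17 (2.04-fold, adjusted p = 0.00478). Both calls ended with no moderation (0.0571 and 0.0621). In the OGA mutant 0 of the 14 genes were called, against 0.00835% of all genes (median 0.01). The 2 smallest p-values there belonged to scyl, a stress-induced inhibitor of TOR (0.22 with SE 0.08, adjusted p = 0.974), and puc (0.17 with SE 0.08, adjusted p = 0.974).

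**Figure D4:**
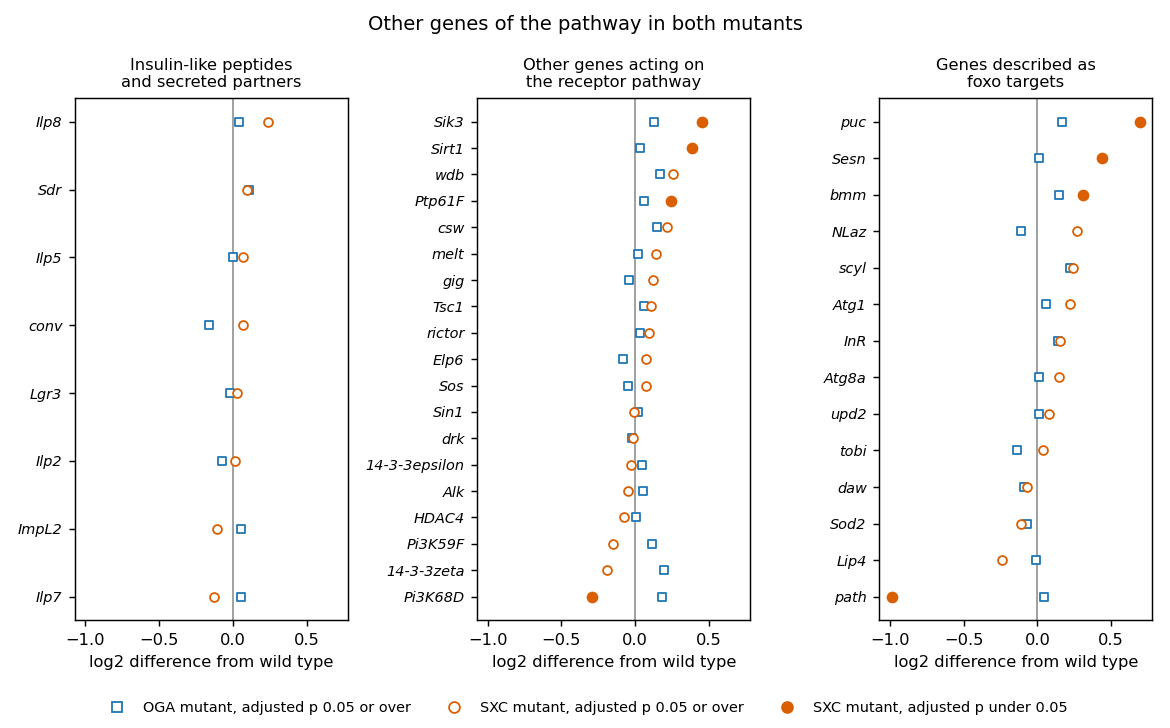
Log2 difference from wild type of measured genes in the 3 further lists, in the OGA mutant (squares) and the SXC mutant (circles). The lists include the members ImpL2 and InR again. Filled symbols have a limma adjusted p under 0.05. All filled symbols belong to the SXC mutant, with puc highest at 0.70 and path lowest at −0.99, and both mutants share the 3 wild-type arrays.

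Some markers of cell types and tissues were called in the SXC mutant, where 12.9% of all genes were called. Among 10 haemocyte markers 1 rose, eater (0.57 with SE 0.11), and 3 fell, PPO2 (−0.81 with SE 0.19), Pxn (−0.51 with SE 0.13) and vkg (−0.48 with SE 0.14). Their summed level was 15.99 to 16.16 in the SXC mutant and 16.09 to 16.22 in wild type on the log2 scale. Of 10 germline markers 2 rose, grk and BicC, the latter from a mean of 4.69 to 5.05. The differences of 3 germline markers were negative, with piwi the lowest (−0.40 with SE 0.15, adjusted p = 0.109). The summed germline level was 12.67 to 12.71, against 12.55 to 12.60, and grk had the highest reading in it. Testis markers had 1 lower of 11 (mia), neurons 1 lower of 8 (elav) and photoreceptors 1 lower of 4 (Arr2). Each of mia, elav and Arr2 had the highest reading of its list, so the summed levels follow it closely: 9.99 to 10.18 against 10.26 to 10.37, 9.52 to 9.60 against 9.62 to 9.73, and 7.35 to 7.42 against 7.50 to 7.79. The median differences were 0.01 for testis (6 of 11 positive), −0.02 for neurons (4 of 8) and −0.07 for photoreceptors (0 of 4). Muscle (6 measured) had 1 higher, up, and gut (10 measured) 1 higher, alphaTry, and eggshell (11), yolk (3), accessory gland (9) and fat body (7) had 0 called. In the OGA mutant no marker of these 11 lists was called, against 0.00835% of all genes. The part of cell type makeup in the differences of foxo, Pdk1 and the pathway genes was not tested.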

How the data were processed

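The authors deposited 1 log2 value per probe set and array for 18952 probe sets; the scale was read from the values (3.43 to 15.4, array medians of 5.96 to 6.04). MAS5, RMA and Partek are named, per the submitters' processing notes, without saying which made the deposited values. Control probe sets (183) were left out. The platform annotation paired 13647 probe sets with 1 gene, and old symbols were updated by gene identifier through a RefSeq table of assembly Release 6 plus ISO1 MT. The probe set with the highest mean stood for its gene, which left 11983 genes.

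All 9 arrays were fitted with limma 3.58.1 in R 4.3.3 as group means with a constant variance prior (6 residual and 5.17 prior degrees of freedom). Benjamini-Hochberg adjustment ran over all genes, and an adjusted p under 0.05 was called. The 95% intervals come from the same fit and are unadjusted. The test was checked on simulated data.

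The pathway genes, the 3 lists of other pathway genes and the 11 marker lists were chosen with earlier results of these data known. The lists of secreted partners and of foxo targets repeat the members ImpL2 and InR. Text names all members, Oga and sxc, and called members of the 3 lists (up to 6 per list; with none called, up to 2 by smallest p); the called markers were named after their values were seen. Genes most like a called member in their pattern were to be named, but no member was called. Sequences were not used here.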

Additional observations from a re-analysis of the deposited data

How the results depend on the processing

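The 6 measured pathway genes were refitted under 16 alternatives in each of 3 comparisons: 281 of 288 values stayed on the same side of the threshold and 7 passed it. No value with a call changed sign. The number of pathway genes called, 0 in each comparison, became 2 in the SXC mutant against wild type with quantile normalization, and 1 with median centring, with an intensity trend and robust prior, or with only the compared groups fitted. It ranged from 0 to 1 with single arrays left out. Between the mutants it became 1 with the intensity trend and robust prior, and in the OGA mutant it was 0 under all 16.

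Over all genes, the OGA mutant had 1 call, but 2 with the intensity trend and robust prior, 0 with no moderation, 0 with only the compared groups, and 0 to 1 with an array left out. The SXC mutant had 1548, but 820 with no moderation, 2824 with array quality weights, and 664 to 1286 with an array left out (leaving out wild type replicates 1 and 2 gave 664 and 1027, and SXC mutant replicates 1 and 2 gave 896 and 984). Between the mutants there were 1410, but 459 with no moderation and 724 to 1261 with an array left out (724 and 793 without SXC mutant replicates 1 and 2, 806 without OGA mutant replicate 3). The causes were not tested.

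With the replicate number as a block, 1, 1261 and 1130 genes were called in the 3 comparisons and 0 pathway genes. Deviations of arrays with the same number correlated from −0.22 to 0.29 across genes. Arrays with different numbers were not compared, so these values cannot show whether the numbers pair the arrays. Alternatives for the 3 lists of other pathway genes were added after seeing the data; of 288 values of their named members, Oga and sxc, 236 kept their call and 52 lost it. No detection calls were used here, so readings near background were not told apart.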
